A study of Homo sapiens with 4 samples.

Results

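The 9 genes described here encode machinery that splits a cell at the end of mitosis: PRC1, RACGAP1, ECT2, ANLN, CIT, CEP55, PDCD6IP, TSG101 and RHOA. They were taken by gene symbol from tables of 18398 RefSeq transcripts, with no threshold on a value but with earlier results of these data known, and all 9 were found. RNA was sequenced from Huh1 and Huh7, both established human hepatocellular carcinoma cell lines, at 48 h after transfection with 15 nM siRNA. The siRNA was either NCsiRNA, a negative control designed to match no endogenous transcript, or CDCA8siRNA (the variant CDCA8-1siRNA, per the study's methods), mixed with cationic lipids. There was 1 library for each of the 4 combinations of line and siRNA, so the spread between cultures of one condition was not measured, and a single siRNA sequence stands for the loss of CDCA8. CDCA8 encodes borealin, a subunit of the chromosomal passenger complex, which carries the kinase Aurora B from the centromeres to the spindle midzone.

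Levels are given as RPKM, the number of reads scaled to transcript length and library size. Where 2 values are given for a line, NCsiRNA stands first. Library sizes recovered from the values ran from 12197606 to 13384836 reads. The targeted transcript CDCA8 stood at 24.1 and 5.86 RPKM in Huh1 and at 51.5 and 7.36 RPKM in Huh7. All 12 hepatocyte lineage markers examined were detected in each library, with sums of 6586 and 5593 RPKM in Huh1 and of 3666 and 2634 RPKM in Huh7. Of 10 markers of fibroblasts, endothelium and blood cells, 9 were matched, with sums of 23.5 and 16.7 RPKM in Huh1 and of 142 and 187 RPKM in Huh7. CDH5 was listed at 0 in every library, PTPRC reached at most 0.417 RPKM, and the macrophage marker CD68 stood at 23.3 and 16.5 RPKM in Huh1 and at 3.71 and 3.73 RPKM in Huh7, nearly the whole sum in Huh1. The fibroblast collagens made up most of the sum in Huh7, with COL1A1 at 0.115 and 0.122 RPKM in Huh1 and at 107 and 125 RPKM in Huh7 and COL1A2 at 31.4 and 56.9 RPKM in Huh7. The part of these markers in the values of the 9 genes was not tested.

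Cytokinesis begins in anaphase, when PRC1 bundles the antiparallel microtubules of the midzone and centralspindlin, made of RACGAP1 and the kinesin KIF23, gathers there. Centralspindlin binds the exchange factor ECT2, which loads the small GTPase RHOA with GTP at the cortex, and active RHOA drives formins and myosin II to build the contractile ring that anillin (ANLN) scaffolds and citron kinase (CIT) helps to mature. The last bridge is cut by the ESCRT machinery, after CEP55 has recruited ALIX (the product of PDCD6IP) and the ESCRT-I subunit TSG101 to the midbody.

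Promoter windows are shown to compare the members for a motif of late cell cycle promoters. Windows of 250 bases before and 50 bases after a transcript start came from RefSeq on GRCh38.p14, and 8 of the 9 genes had one. RACGAP1 had no entry. Searched on both strands were the CHR element TTTGAA, through which the MuvB core of the DREAM complex acts, the CCAAT box, bound by NF-Y, and an E2F core written as TTCGCGC or TTGGCGC. CHR was found in 15.2% of all 35116 windows, CCAAT in 34.6% and the E2F core in 5.06%. Below, 5′ to 3′ along the gene, capitals mark every match. CEP55 and ECT2 are given whole as the members with the largest differences between siRNAs.
CEP55 (chr10:93496362-93496661, plus strand): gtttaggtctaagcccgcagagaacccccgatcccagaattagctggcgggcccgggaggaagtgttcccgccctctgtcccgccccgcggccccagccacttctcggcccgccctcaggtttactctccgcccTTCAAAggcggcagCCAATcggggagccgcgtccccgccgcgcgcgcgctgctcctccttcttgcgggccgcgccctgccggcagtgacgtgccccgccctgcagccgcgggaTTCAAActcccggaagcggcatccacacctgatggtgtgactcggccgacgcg
ECT2 (chr3:172750476-172750775, plus strand): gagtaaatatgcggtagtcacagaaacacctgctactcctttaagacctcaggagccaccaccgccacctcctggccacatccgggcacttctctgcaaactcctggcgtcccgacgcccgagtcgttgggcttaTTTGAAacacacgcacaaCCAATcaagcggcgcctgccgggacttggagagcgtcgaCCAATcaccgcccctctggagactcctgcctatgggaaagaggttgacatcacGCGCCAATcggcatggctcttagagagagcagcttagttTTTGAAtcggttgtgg

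CEP55 held CHR at -116 and -3 and CCAAT at -102, counted from the transcript start to the first base of the match. ECT2 held CHR at -115 and 35 and CCAAT at -97, -58 and -2, the last overlapping its E2F match at -5. PRC1, ANLN and CIT also held CHR, and 60 bases around the match nearest the start are given to show its surroundings.
PRC1 (chr15:90994523-90994582, minus strand): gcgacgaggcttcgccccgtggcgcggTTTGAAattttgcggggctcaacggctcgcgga
ANLN (chr7:36389815-36389874, plus strand): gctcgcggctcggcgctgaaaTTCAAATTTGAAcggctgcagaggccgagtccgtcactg
CIT (chr12:119877278-119877337, minus strand): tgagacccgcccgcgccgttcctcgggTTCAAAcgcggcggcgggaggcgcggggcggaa

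ANLN carried adjacent CHR matches on opposite strands, at -26 and -20, and no CCAAT box. PRC1 carried CHR at -20 and CCAAT at -53, and CIT carried CHR at -208 and 11 and CCAAT at -213, -127 and -34. RHOA held CCAAT at -166. A second, downstream window of ECT2 overlapped the first and held CHR at -242 and -182 and neither other motif. Its match at -242 is the same site as the match at 35 in the first window. The windows of PDCD6IP, TSG101 and RHOA held no CHR. Counted by gene, CHR was present for 5 of 8 members, 7 of 10 midzone partners and 10 of 14 G2/M genes. It was present for 3 of 19 contractile ring genes, 1 of 23 abscission genes and 2 of 15 S phase genes, and for 18.2% of all gene symbols. A match describes letters only, and binding was not measured.

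**Figure D1:**
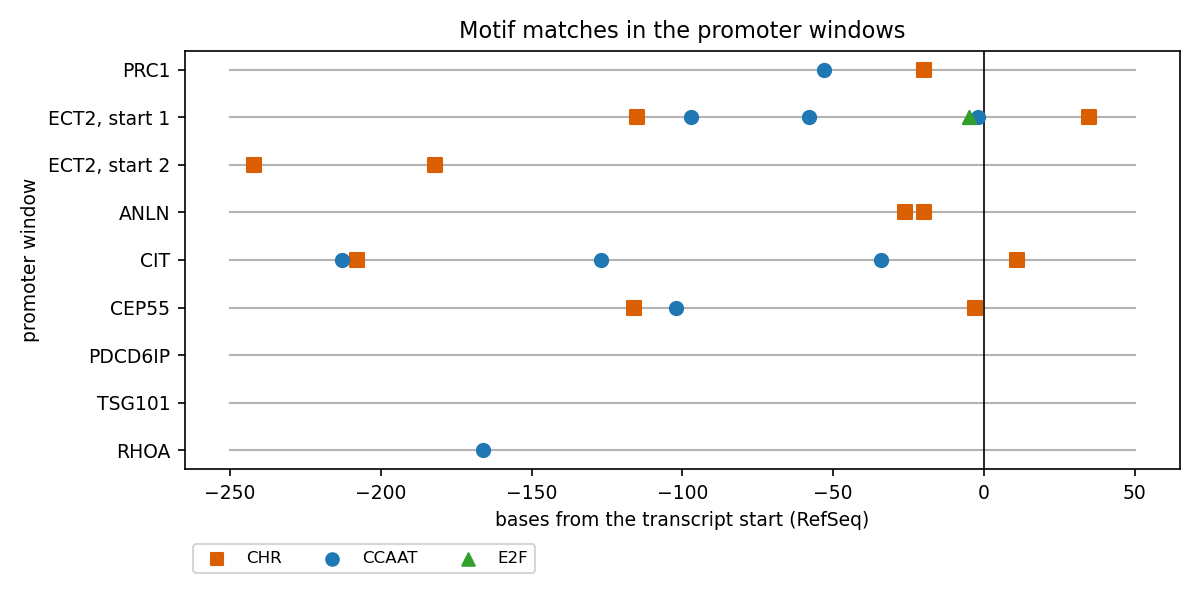
Position of CHR, CCAAT and E2F matches in the promoter windows, in bases from the transcript start. The windows of PRC1, ECT2, ANLN, CIT and CEP55 hold CHR, and those of PDCD6IP, TSG101 and RHOA hold none.

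RHOA was the most abundant of the 9 transcripts per unit length and CIT the least abundant, in every library. The other 7 genes lay between 25.4 and 132 RPKM. In Huh1 with NCsiRNA the order was RHOA, ANLN, CEP55, PRC1, ECT2, TSG101, PDCD6IP, RACGAP1 and CIT. The 95% counting intervals of PRC1 and ECT2 overlapped there, and that of TSG101 overlapped those of PDCD6IP and RACGAP1. In Huh7 with NCsiRNA the order was RHOA, ANLN, PRC1, ECT2, RACGAP1, PDCD6IP, CEP55, TSG101 and CIT. The intervals of PDCD6IP, CEP55 and TSG101 all overlapped each other in that library. With CDCA8siRNA, CEP55 moved from rank 3 to 5 in Huh1 and from rank 7 to 8 in Huh7. All intervals given here are exact 95% intervals on reads and cover counting error only.

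**Figure D2:**
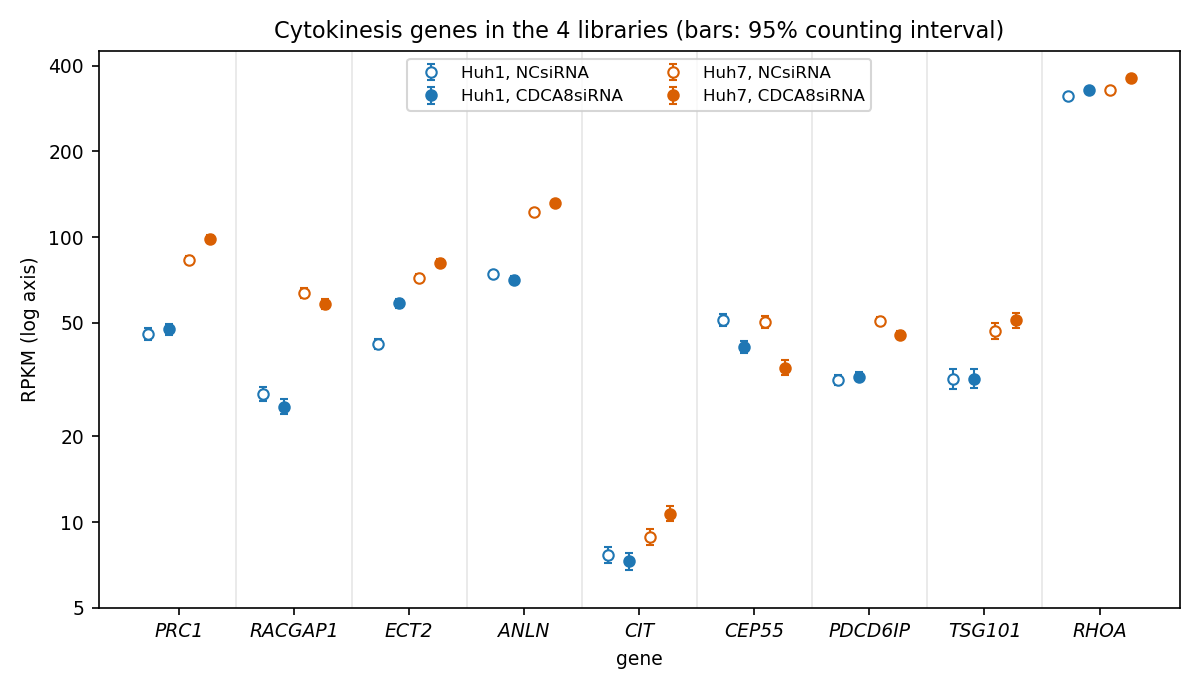
Level of the 9 genes in each library, in RPKM on a log axis, with bars for the 95% counting interval, 1 library per symbol. RHOA lies highest and CIT lowest, and both CEP55 values with CDCA8siRNA lie below both with NCsiRNA.

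The first comparison asked how these transcripts differed after CDCA8 silencing. Lower in both lines were 2 genes, CEP55 and RACGAP1, and higher in both were 4, ECT2, PRC1, RHOA and TSG101. CEP55 and ECT2 differed most over both lines together. On the log2(RPKM + 1) scale 0 of 9 genes reached 2-fold in Huh1, where 0.494% of all genes did, and 0 of 9 in Huh7, where 1.57% did. In Huh1 5 genes were higher and 4 lower, with a median log2 difference of 0.00088 against 0.023 over 10940 genes, of which 55.1% were higher. The fifth, TSG101, lay at 0.00088 and was lower with quantile (-0.02) and upper quartile scaling (-0.01), which gave 4 higher and 5 lower. In Huh7 6 were higher and 3 lower, with a median of 0.12 against 0.033 over 11565 genes, of which 54.5% were higher. There is no test within a line. The test over both lines, by limma on all 4 libraries with a term for the line, asks whether the lines moved alike and not whether repeated transfections would. A gene is said to rise or fall over both lines where its adjusted p in limma was under 0.05. CEP55 was the 1 gene of 9 that fell, where 4.21% of 10357 genes fell, and 0 of 9 rose, where 6.03% of all genes rose. At an unadjusted limma p under 0.05 there were 2 of 9, CEP55 and ECT2, where 26% of all genes were. These counts give no result about the 9 genes as a group, and their median limma log2 difference was 0.062 against 0.026 over all genes.

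CEP55, the midbody hub that recruits ALIX and TSG101, lies at chr10:93496632-93529092 on the plus strand (GRCh38). It stood at 51.3 and 41.2 RPKM in Huh1 and at 50.5 and 34.9 RPKM in Huh7, on 1811, 1433, 1625 and 1128 reads. Both CDCA8siRNA libraries were below both NCsiRNA libraries. The ratio to control was 0.803 (0.748 to 0.861) in Huh1 and 0.690 (0.639 to 0.745) in Huh7, and 7.24% and 4.63% of all genes had a lower log2 difference. CEP55 fell over both lines (log2 difference -0.42, SE 0.0956, adjusted p = 0.0277 in limma). The log2 difference was -0.42 with the other pseudocount and with both scalings. The other filters, the trend and the covariate cannot alter it, so those fits say nothing on its size. Of the 7 alternative fits 3 lost the call, with adjusted p between 0.00195 and 1.00 in limma. In 2 of those 3 fits the call of CDCA8 itself was also lost.

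ECT2, the exchange factor that activates RHOA, lies at chr3:172750682-172821474 on the plus strand. It stood at 42.1 and 58.6 RPKM in Huh1 and at 71.9 and 81.1 RPKM in Huh7. Each CDCA8siRNA library exceeded the control of its line, while across lines the siRNA groups overlapped. The ratio was 1.39 (1.32 to 1.47) in Huh1 and 1.13 (1.08 to 1.18) in Huh7, where 4.81% and 31.5% of all genes had a higher log2 difference. Over both lines it did not pass (log2 difference 0.32, SE 0.0984, adjusted p = 0.0740 in limma), and the adjusted p ranged from 0.0178 to 1.00 over the alternatives.

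RACGAP1, the centralspindlin subunit to which ECT2 docks, lies at chr12:49976923-50033136 on the minus strand. It stood at 28.2 and 25.4 RPKM in Huh1 and at 63.7 and 58.3 RPKM in Huh7. The ratio was 0.8995 (0.829 to 0.976) in Huh1 and 0.914 (0.865 to 0.967) in Huh7, slightly below control in each, and it did not pass (adjusted p = 0.380 in limma). Within a library, where scaling cancels, the ratio of ECT2 to RACGAP1 was 1.49 and 2.31 in Huh1 and 1.13 and 1.39 in Huh7. The ratio of RACGAP1 to its complex partner KIF23 was 0.777 and 0.765 in Huh1 and 0.988 and 0.824 in Huh7.

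PRC1, the midzone microtubule bundler, lies at chr15:90966038-90995629 on the minus strand. It stood at 45.7 and 47.5 RPKM in Huh1 and at 83.1 and 98.8 RPKM in Huh7. The ratio was 1.04 (0.973 to 1.11) in Huh1, an interval that holds 1, and 1.19 (1.13 to 1.25) in Huh7 (adjusted p = 0.338 in limma). Its ratio to KIF4A, the kinesin it binds, was 2.11 and 2.28 in Huh1 and 2.79 and 2.88 in Huh7. The ratio of CEP55 to PRC1 was 1.12 and 0.867 in Huh1 and 0.608 and 0.353 in Huh7, and that of CEP55 to ANLN was 0.692 and 0.583 and then 0.413 and 0.264. Both ratios were lower with CDCA8siRNA in each line.

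ANLN, the scaffold of actin, myosin and RHOA in the ring, lies at chr7:36389806-36453791 on the plus strand. It stood at 74.1 and 70.7 RPKM in Huh1 and at 122 and 132 RPKM in Huh7, with ratios of 0.954 (0.916 to 0.994) and 1.08 (1.05 to 1.12). The lines thus lay on opposite sides of control. CIT, a midbody kinase, lies at chr12:119685790-119877291 on the minus strand and stood at 7.65 and 7.30 RPKM in Huh1 and at 8.87 and 10.7 RPKM in Huh7, with ratios of 0.953 (0.866 to 1.05) and 1.21 (1.11 to 1.32). Neither passed, with adjusted p = 0.899 for ANLN and 0.674 for CIT in limma.

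RHOA, the GTPase that switches on ring assembly, lies at chr3:49359145-49412998 on the minus strand. It stood at 314 and 329 RPKM in Huh1 and at 329 and 361 RPKM in Huh7. It was above control in each line, by ratios of 1.05 (1.02 to 1.08) and 1.10 (1.064 to 1.13), and did not pass (adjusted p = 0.422 in limma). With 7719 to 8518 reads per library its intervals were narrow.

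PDCD6IP lies at chr3:33798352-33869707 on the plus strand and TSG101 at chr11:18468336-18527232 on the minus strand. PDCD6IP stood at 31.5 and 32.4 RPKM in Huh1 and at 50.9 and 45.3 RPKM in Huh7. TSG101 stood at 31.8 and 31.8 RPKM in Huh1 and at 46.8 and 51.0 RPKM in Huh7. In Huh1 both intervals held 1, with ratios of 1.03 (0.974 to 1.09) for PDCD6IP and 1.00 (0.896 to 1.12) for TSG101. In Huh7 the ratios were 0.890 (0.850 to 0.932) and 1.09 (0.995 to 1.197). The ratio of PDCD6IP to TSG101 was 0.989 and 1.02 in Huh1 and 1.09 and 0.888 in Huh7. Neither of these CEP55 clients passed, with adjusted p = 0.733 and 0.720 in limma.

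**Figure D3:**
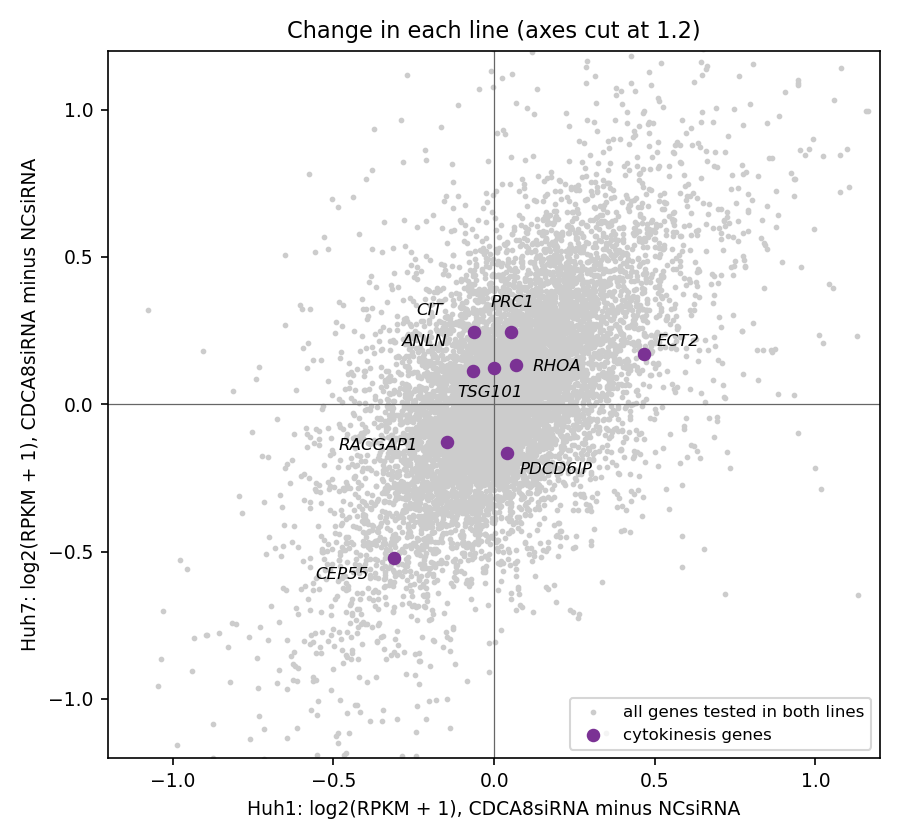
Difference of log2(RPKM + 1) between CDCA8siRNA and NCsiRNA for each gene, Huh1 on the x axis and Huh7 on the y axis, with the 9 genes drawn over all genes tested in both lines. CEP55 lies at -0.31 and -0.52, and ECT2 at 0.47 and 0.17.

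The genes with CHR in their promoter window differed in direction, with limma log2 differences of -0.42 for CEP55, 0.02 for ANLN, 0.09 for CIT, 0.15 for PRC1 and 0.32 for ECT2, of which CEP55 alone passed.

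The second comparison asked how the levels differed between the lines. With NCsiRNA 8 of 9 genes were higher in Huh7, as were 57.2% of 11896 genes, and 1 of them, RACGAP1, by at least 2-fold, where 17% of all genes were. In limma 7 of 9 were higher in Huh7, where 39.1% of all genes were. In that fit the libraries with either siRNA stand in for repeats of a line. Its p-values therefore do not measure the spread between cultures. The median log2 difference over all genes was 0.14 with NCsiRNA, and near 0 after quantile normalization, so values between lines shift with the scaling. RACGAP1 differed most, with a ratio of 2.26 (2.11 to 2.42) with NCsiRNA (log2 difference 1.16, SE 0.0899, adjusted p = 3e-06 in limma). The limma log2 difference was 0.95 for PRC1, 0.80 for ANLN, 0.61 for ECT2, 0.60 for TSG101 and 0.58 for PDCD6IP, and the highest adjusted p of these was 0.000518. CIT differed by 0.34 (adjusted p = 0.0287 in limma), a call that 4 alternative fits lost. RHOA differed by 0.10 (adjusted p = 0.227 in limma), did not pass, and passed with quantile normalization. CEP55 differed by -0.13 (adjusted p = 0.259 in limma) and had a ratio between lines of 0.985 (0.920 to 1.05) with NCsiRNA and of 0.847 (0.782 to 0.916) with CDCA8siRNA.

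**Figure D4:**
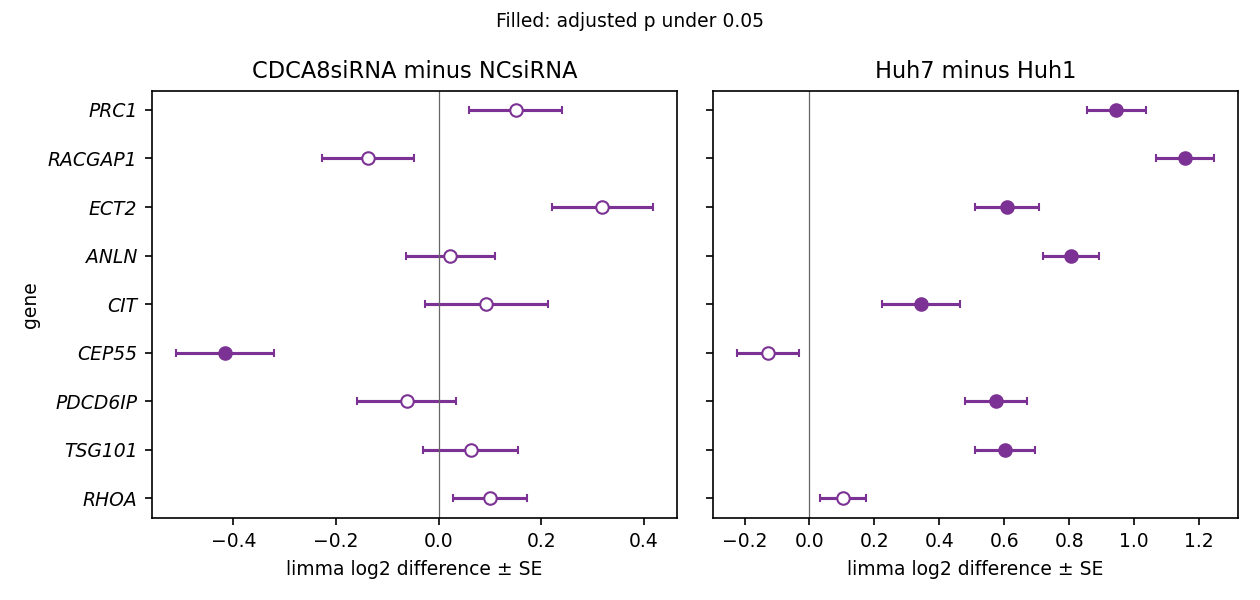
limma log2 difference with its SE for the 9 genes, between siRNAs on the left and between lines on the right, from 1 fit to the 4 libraries. Filled circles have an adjusted p under 0.05, which holds for CEP55 on the left and for 7 genes on the right.

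Partners of these genes were read from lists. Over all 10357 genes 6.03% rose and 4.21% fell, and the list counts that follow were not tested against these shares. Of 11 midzone partners tested, 1 rose and 2 fell, with a median limma log2 difference of -0.12. PLK1, the kinase that prepares RACGAP1 for ECT2, fell and stood at 30.4 and 21.7 RPKM in Huh1 and at 77.7 and 50.1 RPKM in Huh7 (log2 difference -0.55, adjusted p = 0.00938 in limma). AURKB, which encodes Aurora B, fell and stood at 50.6 and 43.6 RPKM in Huh1 and at 68.5 and 45.6 RPKM in Huh7 (log2 difference -0.39, adjusted p = 0.0470 in limma). BIRC5, which encodes the borealin partner survivin, rose and stood at 26.6 and 30.8 RPKM in Huh1 and at 39.3 and 67.2 RPKM in Huh7 (log2 difference 0.48, adjusted p = 0.0450 in limma). AURKB and BIRC5 kept their directions with the other pseudocount and with both scalings, the only alternatives that can alter a log2 difference. Each lost its call in 4 of the 7 alternative fits, with upper quartile scaling and without the trend among these. The adjusted p ran from 0.00338 to 1.00 for AURKB and from 0.000714 to 1.00 for BIRC5 in limma. KIF23 stood at 36.3 and 33.2 RPKM in Huh1 and at 64.5 and 70.7 RPKM in Huh7 (log2 difference 0.00, adjusted p = 0.993 in limma).

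Of 22 contractile ring and RhoA genes tested, 6 rose and 0 fell, with a median of 0.20, and between 0 and 10 were called over the alternative fits. RHOB, a stress-inducible relative of RHOA, stood at 30.2 and 52.6 RPKM in Huh1 and at 62.5 and 86.7 RPKM in Huh7 (log2 difference 0.62, adjusted p = 0.00789 in limma). MYH9, the heavy chain of non-muscle myosin IIA, stood at 70.2 and 97.9 RPKM in Huh1 and at 139 and 201 RPKM in Huh7 (log2 difference 0.50, adjusted p = 0.00706 in limma). The other genes that rose were ARHGEF2, a microtubule-bound activator of RHOA (log2 difference 0.45), the myosin light chain MYL9 (0.43), RHOC, a close relative of RHOA (0.38), and the kinase ROCK2 (0.40), named after its value was seen. The RHOA effectors ROCK1 (log2 difference 0.24, adjusted p = 0.158 in limma) and DIAPH3 (log2 difference 0.32, adjusted p = 0.101 in limma) did not pass, nor did the GTPase-activating protein ARHGAP11A (log2 difference -0.35, adjusted p = 0.0566 in limma).

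Of 26 abscission and ESCRT genes tested, 0 rose and 1 fell, with a median of 0.03. It was VTA1, the cofactor of the ATPase VPS4, at 26.0 and 8.15 RPKM in Huh1 and at 33.1 and 7.19 RPKM in Huh7 (log2 difference -1.81, adjusted p = 0.000542 in limma), and it passed 2-fold in each line. CHMP4B, an ESCRT-III filament subunit, stood at 62.5 and 71.5 RPKM in Huh1 and at 74.6 and 78.9 RPKM in Huh7 (log2 difference 0.14, adjusted p = 0.358 in limma). CHMP4C, which acts in the abscission checkpoint, stood at 6.96 and 9.78 RPKM in Huh1 and at 13.7 and 12.01 RPKM in Huh7 (log2 difference 0.13, adjusted p = 0.617 in limma). TEX14, which blocks CEP55 in germ cells, reached at most 0.197 RPKM, and PDCD6 was not analysed here.

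Genes of the cell cycle phases stood beside these values. Of 18 G2/M genes 0 rose and 2 fell, TOP2A (log2 difference -0.40, adjusted p = 0.0192 in limma) and UBE2C (log2 difference -0.31, adjusted p = 0.0458 in limma), and their sum was 809 and 709 RPKM in Huh1 and 1348 and 1202 RPKM in Huh7. Of 18 S phase genes 0 rose and 5 fell, namely SLBP, PCNA, CCNE1, RRM2 and, named after its value was seen, TYMS, and their sum was 939.7 and 873 RPKM in Huh1 and 1318 and 919.5 RPKM in Huh7. The part of cell cycle phase in the values of the 9 genes was not tested. In bulk RNA, fewer cells of a type and less RNA per cell cannot be told apart.

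**Figure D5:**
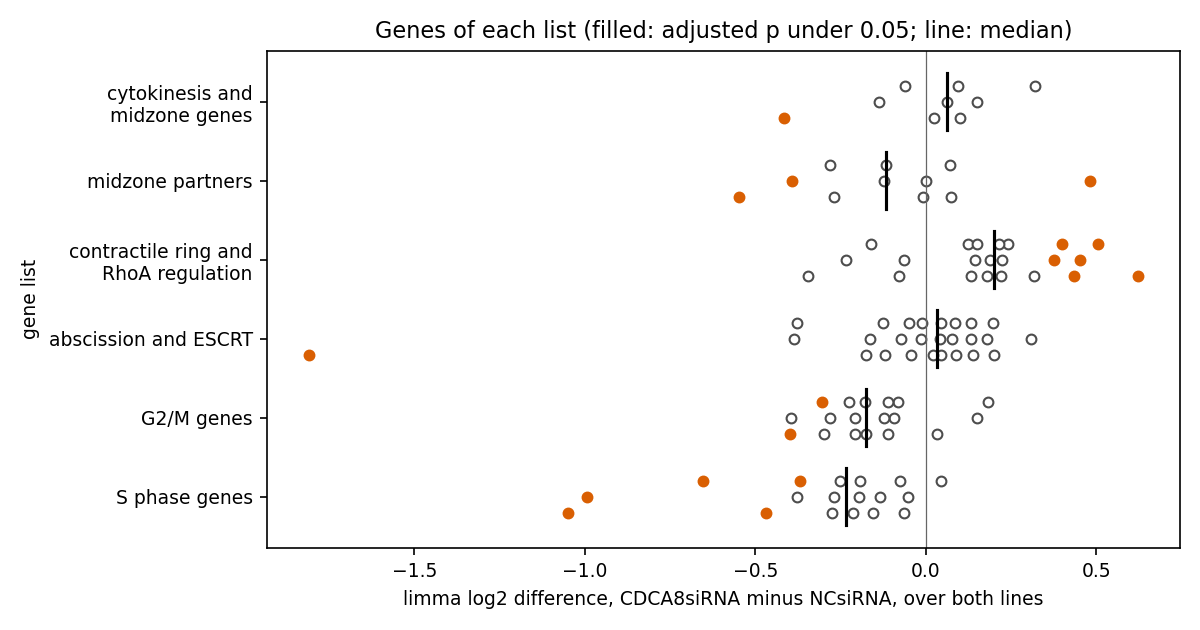
limma log2 difference between CDCA8siRNA and NCsiRNA over both lines, 1 circle per gene tested, by list, with a bar at the median. Filled circles have an adjusted p under 0.05: CEP55 among the 9 genes, 6 of 22 contractile ring genes, all higher, and VTA1 at -1.81 among 26 abscission genes. Also filled are 1 higher and 2 lower midzone partners, and 2 G2/M genes and 5 S phase genes, all lower.

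The values of PRC1, RACGAP1, ANLN, CEP55 and TSG101 were whole reads in all 4 libraries, while those of ECT2 and RHOA were fractions of a read. CIT and PDCD6IP gave no such length, so their reads and intervals are approximate. RACGAP1 has the pseudogene RACGAP1P, and PDCD6IP has PDCD6IPP1 and PDCD6IPP2. Whether counting used strand is not given in the sources used here. PRC1 shares 361 exon bases with PRC1-AS1, PDCD6IP 145 with AC112220.2, CIT 81 with AC002563.1 and ANLN 78 with KIAA0895, each on the opposite strand, so their reads cannot be told apart without strand. On its own strand PRC1 shares 2674 exon bases with AC068831.7, and CIT shares 15 with MIR1178. For PRC1 these shared bases come from a GENCODE transcript of 4087 bases that was matched by symbol and not by RefSeq identifier. The length recovered from its values was 2994 bases, so the PRC1 transcript that was counted may share other numbers of bases.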

How the data were processed

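RNA-seq libraries of Huh1 and Huh7 cells (1 per line and siRNA) were assigned to conditions from the labels, and dose and time from the study's methods. The labels name an Illumina TruSeq RNA kit and 1 ug of total RNA. The authors deposited 1 RPKM value per RefSeq transcript and library, without naming the unit, and CASAVA 1.8.2, TopHat2 2.0.9 and hg19 are listed in the submitters' processing notes. The counter, the annotation and the filters are not given in the sources used here. The unit was deduced from the values: multiplied by transcript length, they fall on multiples of 1 read, which gave each library's size. For 7 members the length behind the value was recovered as the one within 30% of the GENCODE release 29 length at which all 4 values were multiples of 1 read or of a fraction with a denominator of at most 6 (tolerance 2e-05 reads). Reads served only for exact 95% Poisson and Clopper-Pearson intervals.

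Differences were computed as log2(RPKM + 1), over genes with at least 1 RPKM in a library of the pair, and understate changes of low genes. Calls used 2-fold within a line and, over both lines, limma 3.58.1 in R 4.3.3 (lmFit, eBayes with trend, line and siRNA as factors) with Benjamini-Hochberg adjustment over 10357 genes. The fit left 1 residual degree of freedom, with a prior worth 8.29. Adjusted p-values therefore lean on the prior. The limma fit was also run on simulated counts, with planted changes larger than those of the members. Its outcome there is not given here. Gene positions came from GENCODE on GRCh38, promoters from RefSeq. Symbols in the lists were matched directly or, for CHMP3, MVB12A and MVB12B, by RefSeq identifier. Named were every member, the 4 called genes of largest change per list, genes changed 2-fold in a line and the direct partners of members. The members and lists were chosen with earlier results of these data known, and the ratios between members after their values were seen. Proteins were not analysed here. Alternatives were another pseudocount, other filters, quantile and upper quartile scaling, and limma without the trend or the covariate. Other steps ran in Python 3.11.15 (numpy 2.4.6, pandas 2.3.3, scipy 1.17.1, matplotlib 3.10.9).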

Additional observations from a re-analysis of the deposited data

Results flagged for a closer look

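ANLN, CIT and PDCD6IP had differences of opposite sign in the 2 lines, each from 1 library against 1, as had 30.6% of 10357 genes. The log2 difference in Huh7 minus that in Huh1 was 0.179 for ANLN, 0.308 for CIT and -0.205 for PDCD6IP, beside an SD of 0.273 over all genes. These differences between lines were not tested. The 95% counting interval of the ratio excluded 1 in both lines for ANLN, and in Huh7 alone for CIT and PDCD6IP.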

How the results depend on the processing

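Each condition has 1 library, so no replicate could be left out. The limma fit compares the siRNAs within each line. No pairing beyond the line was possible, because the labels give no replicate numbers. The 2-fold counts of the 9 genes stayed at 0 under each alternative run, while those over all genes were 164 against 54 (Huh1) and 422 against 182 (Huh7) with a pseudocount of 0.1 RPKM. The count of the 9 that fell over both lines was 0 in place of 1 without a filter on low values, without the trend and without the covariate, where the adjusted p of CEP55 in limma was 0.268, 0.0636 and 1.00. The count that rose was 1 in place of 0 with quantile normalization (ECT2). Over all genes limma called 1061, against 0 without a filter, 0 without the covariate and 1624 with quantile normalization. List calls were 0 in the fits with 0 calls. With quantile normalization they were 10 against 6 for the contractile ring, 3 against 1 for abscission and 4 against 2 for G2/M, and with upper quartile scaling 1 against 3 for midzone partners and 1 against 2 for G2/M. Without the trend they were 1 against 3 for midzone partners, 3 against 6 for the contractile ring, 0 against 2 for G2/M and 3 against 5 for S phase. In Huh1 alone the direction reversed for ANLN (-0.0670), CIT (-0.0611) and PDCD6IP (0.0402), since the lines differ in sign. Between lines CIT lost its call without a filter, with either scaling and without the covariate, and RHOA gained one with quantile normalization. Other causes were not tested. Of the values of single genes, 289 kept their call or, where untested, stayed within the 95% counting interval or, in a line alone, kept their direction (with a change of sign for TSG101 in Huh1, to -0.0214 with quantile and -0.0141 with upper quartile scaling), 5 moved further, 3 reversed, 2 gained a call and 11 lost one. Part of the 289 could not differ. A filter does not alter the value of a gene, so untested differences under other filters had to stay. With each line taken alone, at least 1 line had to keep the direction of their mean. Each member had at least 650 reads per library.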

Other observations

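Of 12 hepatocyte lineage genes 8 fell over both lines in limma and 0 rose, where 4.21% of all genes fell and 6.03% rose. The median log2 difference of the 12 was -0.46. The 4 with the largest change were APOB (-0.70), APOA1 (-0.65), TF (-0.53) and ALB (-0.53). APOB stood at 217 and 144 RPKM in Huh1 and at 130.2 and 74.2 RPKM in Huh7 (adjusted p = 0.00251 in limma). No relation of these genes to the cytokinesis genes was tested.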
